A study of Mus musculus with 26 samples.

Results

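The data cover the first day of reprogramming of mouse fibroblasts with Pou5f1 (Oct4), Sox2 and Klf4, the OSK factors: 2 libraries of OSK cultures at day 1 against 2 of OSK cultures at day 0. Of the 18198 genes in the deposited table, 13195 (72.5%) had a value of 10 or more in at least 2 of these 4 libraries, and these are the genes described. The cultures came from embryonic fibroblasts (MEF) used within 2 passages and infected with retrovirus made in PlatE packaging cells. Infected cells grew in iCD1 or ESC medium, and the labels do not say which medium each library had. The ESC are labelled CBA/CaJ X C57BL/6J; strain and sex of the other groups are not given in the sources used here. The other groups drawn on, each with 2 of the 26 libraries, were OSK with added Jun (OSK+cJun) at days 0, 1, 3 and 7, OSK at days 3, 5 and 7, OSK with shSap30 at day 7, uninfected MEF, embryonic stem cells (ESC) and induced pluripotent stem cells (iPSC). Bulk RNA cannot tell fewer cells of a kind from less RNA per cell.

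Pou5f1 and Sox2 bind DNA together at many enhancers of pluripotent cells, and Klf4 is a zinc finger factor that shares many of their sites. Given to fibroblasts, the factors are known for an early loss of the fibroblast programme and, only much later, a return of the endogenous pluripotency network. Fibroblasts on plastic build actin stress fibres, focal adhesions and collagen-rich matrix. Many of the contractile genes are driven by serum response factor (SRF), which binds the CArG box, a run of A and T bases between a CC and a GG.

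Values in the table carry no depth: every library had nearly the same total, from 4622018 to 4622994 in the 4 libraries, and all shared nearly the same distribution of values. They are also not per length, so levels are compared between libraries of 1 gene and not between genes. Folds are differences of means of log2(value + 1), which understates changes of genes near 0. A gene was called when limma's adjusted p over all 16038 genes tested was below 0.05 and the log2 fold was at least 1 in size. The median standard error (SE) of a log2 fold was 0.31. limma took the spread from the replicates of all 26 libraries in 13 groups, and not from the 4 compared libraries alone. The labels do not say that replicates were separate cultures, so p-values measure only this pooled spread between replicate libraries, which may be technical. Genes with 1 group near 0 entered the set through their high group alone.

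The delivered factors were present at both times. Pou5f1 stood at 21544 and 21544 at day 1, the table's highest value, against 11662 and 8974 at day 0. Sox2 had 6923 and 8974 at day 1, against 4302 and 4609 at day 0. Klf4 had 11663 and 11663 at day 1, against 5481 and 6923 at day 0. In uninfected MEF, Pou5f1 was at 2 and 0, Sox2 at 6 and 1 and Klf4 at 496 and 265. The day 0 libraries thus already held transcripts of the factors, and for each factor both day 1 libraries lay above both day 0 libraries. None passed the test: log2 folds were 1.07 for Pou5f1 (SE 0.97, adjusted p = 0.605), 0.82 for Sox2 (SE 0.48, adjusted p = 0.353) and 0.92 for Klf4 (SE 0.50, adjusted p = 0.31). The SE of Pou5f1 takes in OSK day 5, where replicate 1 had 656 and replicate 2 had 21544. Vector and endogenous transcripts of these genes may not be separable here.

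In all, 943 of the 13195 genes (7.15%) were called, 460 higher and 483 lower at day 1. Over all 16038 genes tested, 3.18% were called higher and 3.12% lower, against 3.49% and 3.66% of the genes described. Changes were often large: 194 genes rose and 232 fell by at least 2 on the log2 scale, and 104 rose and 103 fell by at least 3. The median gene moved by 0.04. Libraries of day 1 and day 0 did not overlap in 53.3% of the genes, where the share over all genes tested was 47.8%, so separation of 2 against 2 libraries says little by itself. Among the 460 that rose, 23 were listed at 0 in both day 0 libraries, and among the 483 that fell, 19 were listed at 0 in both day 1 libraries; no fold is given for those. Leaving out any library lowered the counts, to 327 higher and 354 lower without day 1 replicate 1, 196 and 181 without day 1 replicate 2, 282 and 265 without day 0 replicate 1, and 314 and 245 without day 0 replicate 2. Calls in all 4 of these fits numbered 152 higher and 135 lower. With only the 4 libraries in the fit, 15 genes were called higher and 38 lower, while 3437 had an unadjusted p below 0.05.

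**Figure D1:**
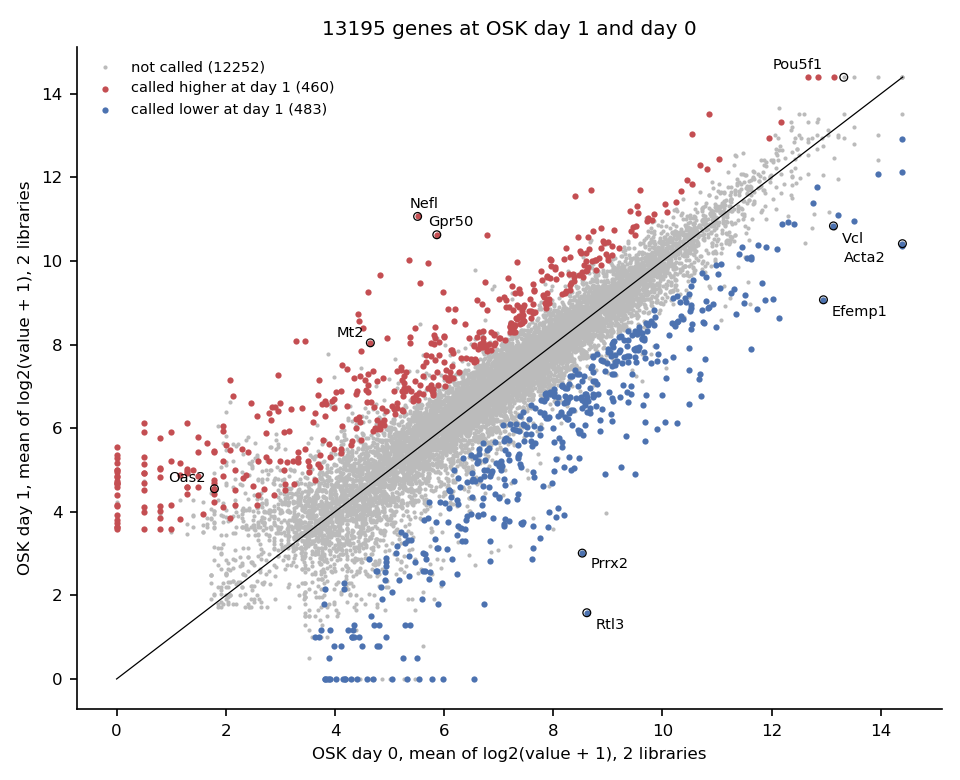
Mean of log2(value + 1) over the 2 OSK day 1 libraries (vertical axis) and the 2 OSK day 0 libraries (horizontal axis) for 13195 genes, with the diagonal of equal values. The 460 genes called higher at day 1 (red) lie above the cloud and the 483 called lower (blue) below it, and points at the top and right edges sit at the table's highest value.

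Genes of the contractile apparatus fell. Of 31 contractile and focal adhesion genes, 22 were called lower and none higher, with a median log2 fold of -1.95 and 30 of 31 folds negative. Csrp1, a LIM protein of the actin cytoskeleton, had 374 and 315 at day 1, against 1901 and 2151 at day 0 (log2 fold -2.56, SE 0.17, adjusted p = 2.85e-07). Vcl, the vinculin of focal adhesions, had 1900 and 1765 at day 1, against 8974 in both libraries at day 0 (log2 fold -2.29, SE 0.20, adjusted p = 4.49e-06). Both genes were tight within each time and far apart between times.

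Some of these genes were near 0 at day 1. Lmod1, which nucleates actin filaments, had 8 and 5 at day 1, against 269 and 141 at day 0 (log2 fold -4.74, SE 0.71, adjusted p = 0.000484). The calponin Cnn1 had 25 and 8 at day 1, against 364 and 233 at day 0 (log2 fold -4.26, SE 0.74, adjusted p = 0.00163). Smooth muscle actin Acta2 fell to 2260 and 823 at day 1, against the table's highest value, 21544, in both day 0 libraries, so its log2 fold of -3.98 (SE 0.86, adjusted p = 0.00865) may be understated. Ldb3, a Z-disc protein, was listed at 0 in both day 1 libraries and had 26 and 24 at day 0. Genes that stayed at higher values fell too. Log2 folds were -2.12 for tropomyosin Tpm1, -1.98 for Cnn2 and, named after its values were seen, -1.48 for filamin Flna. Summed over the list, values were 44289 and 36058 at day 1, against 124406 and 119995 at day 0. In 24 of the 31 genes day 1 replicate 2 was the lower of the day 1 pair. Without it 12 members were called, and 20 without day 1 replicate 1, 17 without day 0 replicate 1 and 16 without day 0 replicate 2. Acta2 lost its call without day 1 replicate 2 or either day 0 library, with adjusted p up to 0.126.

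**Figure D2:**
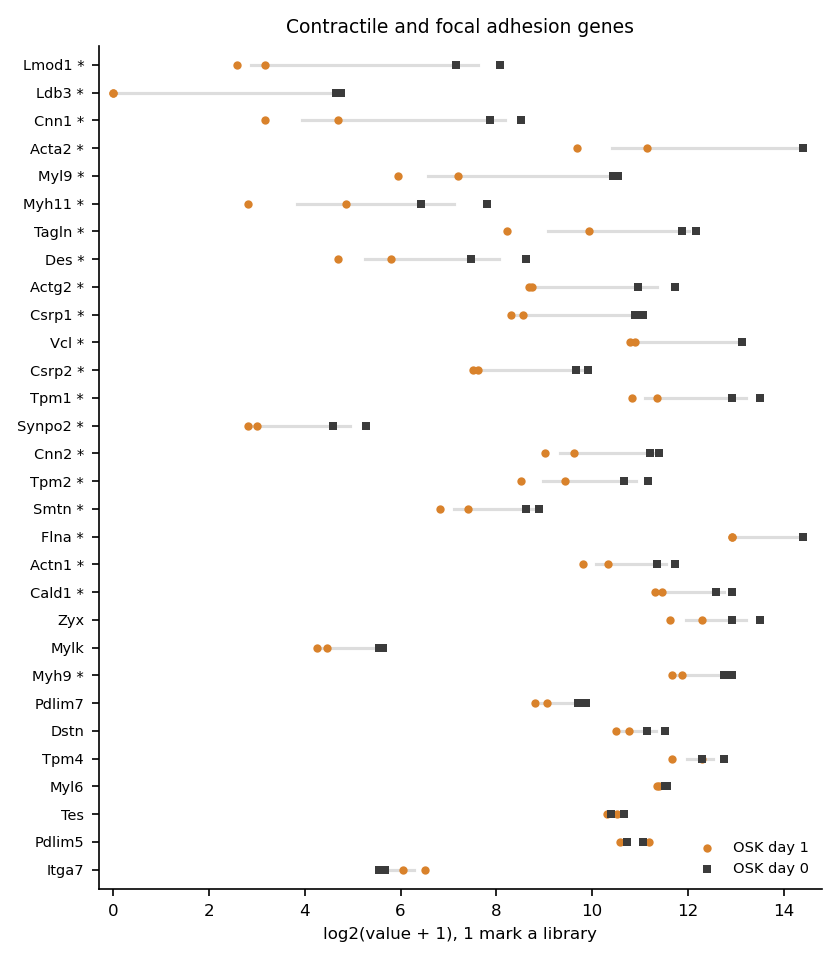
Values of 30 of the 31 contractile and focal adhesion genes, as log2(value + 1), in the 2 OSK day 1 libraries (orange circles) and the 2 OSK day 0 libraries (dark squares), with a grey bar between the means and an asterisk at the 21 of them that were called. Genes run from the largest fall at the top to Itga7, the only positive fold, at the bottom, and Acta2 and Flna sit at the table's highest value at day 0.

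The CArG box was looked for, on both strands, in RefSeq promoters that run from 250 bases before to 50 after a gene's start (GRCm38.p6). It was found in 5 of the 25 contractile genes with a promoter in the table (20.0%), in 4 of the 17 called ones (23.5%) and in 1.62% of the 10055 described genes with a promoter, as in 1.81% of all 27025 genes there. Among genes that fell, 19 of 370 held it (5.14%), and among those that rose, 8 of 366 (2.19%). The boxes of the 4 called contractile genes and of Fhl1 and Fhl2 are shown because they belong to genes that fell, with the box in capitals and its first base counted from the nearest start; Fhl1 and Fhl2 were named after their values were seen.
Cnn2 (chr10:79988519-79988578, plus strand, box at -56): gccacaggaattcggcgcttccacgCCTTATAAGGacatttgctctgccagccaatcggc
Ldb3 (chr14:34588682-34588741, minus strand, box at -35): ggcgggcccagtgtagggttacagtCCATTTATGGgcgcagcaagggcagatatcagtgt
Myl9 (chr2:156775278-156775337, plus strand, box at -161): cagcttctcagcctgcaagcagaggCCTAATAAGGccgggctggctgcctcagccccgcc
Vcl (chr14:20929148-20929205, plus strand, box at -227): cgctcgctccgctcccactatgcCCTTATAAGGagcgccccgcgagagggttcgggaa
Fhl1 (chrX:56779556-56779615, plus strand, box at -102): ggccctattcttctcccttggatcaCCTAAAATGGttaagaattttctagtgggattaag
Fhl2 (chr1:43163958-43164017, minus strand, box at -31): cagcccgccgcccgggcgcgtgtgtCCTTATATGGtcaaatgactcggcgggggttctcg
The LIM-domain gene Fhl1 had 79 and 61 at day 1, against 1229 and 899 at day 0 (log2 fold -3.90, SE 0.41, adjusted p = 2.87e-05). Its relative Fhl2 had 82 and 105 at day 1, against 415 and 349 at day 0 (log2 fold -2.02, SE 0.40, adjusted p = 0.00382). The regulatory light chain Myl9 had 145 and 61 at day 1, against 1481 and 1376 at day 0 (log2 fold -3.91, SE 0.76, adjusted p = 0.00378), a call lost without day 1 replicate 2 (adjusted p = 0.0719).

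Genes that were not called held the box too. Among early growth and SRF target genes, the immediate response to serum, 5 of 21 with a promoter held it (23.8%), and none of those 5 was called. Across that list of 28, 3 genes were called lower and none higher, with a median log2 fold of -0.78. The boxes of a contractile gene and of 3 early growth genes that were not called are set beside the ones above for comparison.
Myl6 (chr10:128493025-128493084, minus strand, box at -50): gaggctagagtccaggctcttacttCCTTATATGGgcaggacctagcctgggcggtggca
Actg1 (chr11:120348551-120348610, minus strand, box at -90): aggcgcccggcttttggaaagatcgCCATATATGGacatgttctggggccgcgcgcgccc
Egr2 (chr10:67537772-67537831, plus strand, box at -72): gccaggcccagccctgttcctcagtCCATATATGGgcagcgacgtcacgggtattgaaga
Zfp36 (chr7:28379252-28379311, minus strand, box at -58): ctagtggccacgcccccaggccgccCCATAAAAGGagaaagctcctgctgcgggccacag
Their log2 folds were -0.17 for the light chain Myl6 (adjusted p = 0.593), -0.93 for cytoplasmic actin Actg1 (adjusted p = 0.175), -0.75 for the zinc finger factor Egr2 (adjusted p = 0.888) and -0.93 for the mRNA-decay factor Zfp36 (adjusted p = 0.582). Srf itself had 261 and 306 at day 1, against 465 and 454 at day 0 (log2 fold -0.70, SE 0.27, adjusted p = 0.134). These 5 genes were named for their boxes after values were seen. The 3 early growth genes called were Btg2, an antiproliferative factor, at 116 and 134 at day 1 against 335 and 498 at day 0 (log2 fold -1.70, adjusted p = 0.00207), and the transcription factors Nr4a1 and Klf10, with log2 folds of -1.69 and -1.62. The call of Nr4a1 was lost without any 1 of the 4 libraries (adjusted p up to 0.165) and that of Klf10 without day 1 replicate 2 or either day 0 library (adjusted p up to 0.132).

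Targets of Yap and Tead, the co-activator and DNA-binding pair that report stretch and cell density, also fell in part. Of 19 genes, 5 were called lower and 1, Nt5e, higher, with a median log2 fold of -0.66. Tissue factor F3, the trigger of coagulation, had 169 and 69 at day 1, against 2035 and 1364 at day 0 (log2 fold -3.93, SE 0.45, adjusted p = 5.1e-05). Amotl2, an angiomotin that binds Yap, had 688 and 383 at day 1, against 2939 and 2792 at day 0 (log2 fold -2.48, SE 0.38, adjusted p = 0.000516). The muscle ankyrin-repeat gene Ankrd1 had 27 and 8 at day 1, against 465 and 124 at day 0 (log2 fold -3.93, adjusted p = 0.00556), a call lost without day 1 replicate 2 or day 0 replicate 1 (adjusted p up to 0.106). Ccn1, the classical secreted target, stood at 1000 and 523 at day 1, against 3031 in both day 0 libraries and missed the threshold (log2 fold -2.07, SE 0.67, adjusted p = 0.0712; named after its values were seen). Nt5e, an ectonucleotidase that makes adenosine, went against the list, with 609 and 865 at day 1, against 74 and 152 at day 0 (log2 fold 2.76, SE 0.37, adjusted p = 0.000212). The Tead site, searched as GGAATG on both strands, was in 9 of the 15 list genes with a promoter (60%), in 2 of the 6 called (33.3%) and in 14.7% of the described genes. The sites of the 2 called genes that hold it are shown in capitals; on the plus strand of Amotl2 the site reads as its reverse complement, and Ankrd1 holds a further site in the same promoter.
Amotl2 (chr9:102717714-102717769, plus strand, site at -65): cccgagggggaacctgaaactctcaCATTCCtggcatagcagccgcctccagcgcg
Ankrd1 (chr19:36119937-36119992, minus strand, site at -123): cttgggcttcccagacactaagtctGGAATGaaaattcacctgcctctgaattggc
Of the genes that fell, 23.5% held the Tead site, and of those that rose, 16.1%. The AP-1 site TGANTCA was in 8.11% of those that fell, 11.2% of those that rose and 6.3% of the described genes. Counts of called list genes lower at day 1 were 3 without day 1 replicate 2 or day 0 replicate 1, against 5.

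Extracellular matrix genes fell in part: 21 of 60 were called lower and none higher, with a median log2 fold of -1.32. Efemp1 (fibulin-3), an elastic-fibre glycoprotein, had 656 and 440 at day 1, against 6943 and 8995 at day 0 (log2 fold -3.88, SE 0.40, adjusted p = 2.28e-05). The fibrillar collagen Col5a2 had 3279 and 6138 at day 1, against 21544 in both day 0 libraries (log2 fold -2.26, SE 0.32, adjusted p = 0.000293), where the table's highest value may understate the fall. The small proteoglycan Prelp had 61 and 63 at day 1, against 597 and 1518 at day 0 (log2 fold -3.92, SE 0.63, adjusted p = 0.000863). Enzymes that mature collagen and elastin fell too. The prolyl hydroxylase subunit P4ha3 had 28 and 22 at day 1, against 239 and 263 at day 0 (log2 fold -3.29, SE 0.50, adjusted p = 0.000526), and the lysyl oxidase relative Loxl3 had 113 and 192 at day 1, against 919 and 1251 at day 0 (log2 fold -2.85, SE 0.41, adjusted p = 0.000294). Thbs1, the matricellular thrombospondin, had 1947 and 881 at day 1, against 21544 in both day 0 libraries (log2 fold -4.04, SE 1.0, adjusted p = 0.0195), a call lost without day 1 replicate 2 or either day 0 library (adjusted p up to 0.173). Collagen I did not pass: Col1a1 had 5488 in both day 1 libraries and 11667 and 21544 at day 0 (log2 fold -1.53, SE 0.87, adjusted p = 0.347; named after its values were seen). The count of called members was 9 without day 1 replicate 2, 10 without either day 0 library and 14 without day 1 replicate 1.

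Of 29 extracellular proteases and their inhibitors, 6 were called lower and none higher, with a median log2 fold of -0.87. Adamts9, a proteoglycan-cleaving metalloprotease, had 22 and 17 at day 1, against 100 and 81 at day 0 (log2 fold -2.16, SE 0.38, adjusted p = 0.00178). Others called were Adam12, Serpinf1, Mmp11 and Mmp23. The count was 1 without day 1 replicate 2 or day 0 replicate 1, and 4 without day 0 replicate 2.

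**Figure D3:**
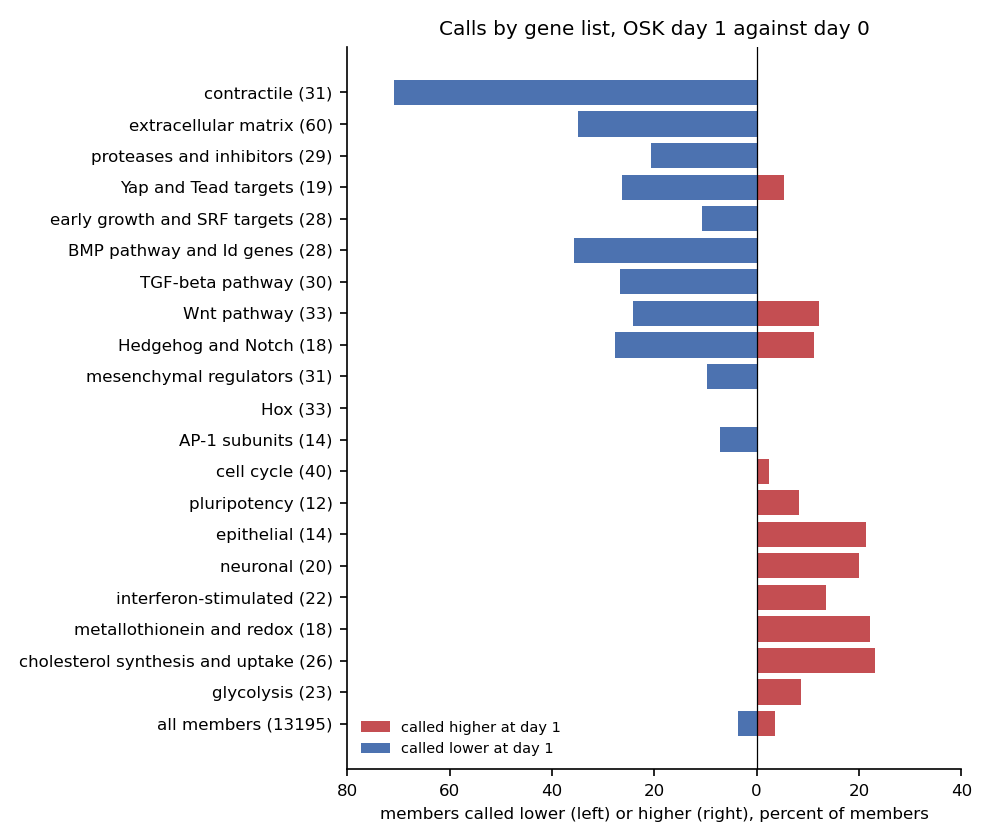
Share of the members of each gene list called higher (red, right) or lower (blue, left) at OSK day 1 than day 0, in percent of the members given in brackets. The contractile list stands out to the left with 22 of 31 called lower, and the bottom bar shows all 13195 genes, with 460 higher and 483 lower.

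Where no gene of a list was called in a direction by limma, some still had an unadjusted p below 0.05 in it. In lists with no higher call these were 2 matrix, 1 BMP, 1 early growth, 3 FGF, 1 AP-1, 2 ATF4, 1 chaperone and 4 Cdk inhibitor and p53 genes that were higher, and 0 in the contractile, TGF-beta, protease, mesenchymal, IGF and inflammatory lists. In lists with no lower call these were 4 epithelial, 3 neuronal, 2 metallothionein and redox, 2 glycolysis, 1 pluripotency, 1 chromatin and 1 cell cycle gene that were lower, and 0 in the cholesterol, interferon, keratinocyte and trophoblast lists.

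Some readouts and components of BMP signalling fell. Of 28 genes listed for the BMP pathway and Id family, 10 were called lower and none higher, with a median log2 fold of -1.19. The 10 take in Fzd2, a Wnt receptor that this list holds and the Wnt list below does not. Its log2 fold was -1.935 (adjusted p = 0.00495), a call lost without day 0 replicate 2. Id proteins are BMP-induced inhibitors of basic helix-loop-helix factors: Id3 had 28 and 38 at day 1, against 526 and 690 at day 0 (log2 fold -4.17, SE 0.78, adjusted p = 0.00302). Smad6, the inhibitory Smad that BMP induces, had 13 and 11 at day 1, against 135 and 218 at day 0 (log2 fold -3.73, SE 0.59, adjusted p = 0.000741). Atoh8, a helix-loop-helix factor, had 0 and 1 at day 1, against 32 and 61 at day 0 (log2 fold -5.0, SE 0.63, adjusted p = 0.000118). The secreted antagonist Nog was listed at 0 in both day 1 libraries and had 67 and 31 at day 0. The ligand Bmp6 had 7 and 18 at day 1, against 48 and 128 at day 0 (log2 fold -2.69, adjusted p = 0.017), and lost its call without day 1 replicate 1 or day 0 replicate 2 (adjusted p up to 0.183). Counts of called members were 7 without day 1 replicate 1, 6 without day 1 replicate 2 or day 0 replicate 1, and 5 without day 0 replicate 2.

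In the TGF-beta pathway, which drives matrix synthesis in fibroblasts, 8 of 30 genes were called lower and none higher, with a median log2 fold of -0.63. Acvr1, a type I receptor, had 231 and 252 at day 1, against 658 and 811 at day 0 (log2 fold -1.59, SE 0.26, adjusted p = 0.000976). The ligand Tgfb3 had 111 and 101 at day 1, against 478 and 375 at day 0 (log2 fold -1.99, SE 0.37, adjusted p = 0.00273). Inhba, the activin A subunit, had 143 and 60 at day 1, against 875 and 731 at day 0 (log2 fold -3.10, SE 0.57, adjusted p = 0.00235), a call lost without day 1 replicate 2 (adjusted p = 0.0627). The activin-binding Fstl3 had 34 and 22 at day 1, against 295 and 136 at day 0 (log2 fold -2.83, SE 0.49, adjusted p = 0.00158). The count was 3 without day 1 replicate 2 and 5 without day 0 replicate 1.

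Wnt genes moved both ways, 8 of 33 lower and 4 higher, with a median log2 fold of -0.61. The secreted antagonist Sfrp2 had 36 and 23 at day 1, against 756 and 691 at day 0 (log2 fold -4.60, SE 0.64, adjusted p = 0.000291). Tcf7l1, the repressing Tcf factor of the pathway, had 267 and 269 at day 1, against 537 and 559 at day 0 (log2 fold -1.03, SE 0.20, adjusted p = 0.00402). Among receptors, Fzd7 fell to 129 and 89 at day 1, against 464 and 333 at day 0 (log2 fold -1.86, adjusted p = 0.00479), while Fzd5 rose to 272 and 249 at day 1, against 61 and 27 at day 0 (log2 fold 2.65, adjusted p = 0.00556). Fzd7 lost its call without day 1 replicate 2 or day 0 replicate 1 (adjusted p up to 0.0819) and Fzd5 without day 0 replicate 2 (adjusted p = 0.0838). Lower calls numbered 4 without day 1 replicate 2 or either day 0 library.

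Receptors and feedback genes of other pathways were called as well. Of 18 Hedgehog and Notch genes, 5 were called lower and 2 higher. Of the 5 lower calls 0 held without day 0 replicate 2, 1 without day 1 replicate 1 and 2 without either other library, and of the 2 higher calls 1 held without day 1 replicate 2 or day 0 replicate 1. Notch4, a Notch receptor, had 218 and 838 at day 1, against 12 and 34 at day 0 (log2 fold 4.33, SE 0.74, adjusted p = 0.00162). The Hedgehog receptor Ptch1 had 475 and 598 at day 1, against 76 and 120 at day 0 (log2 fold 2.47, SE 0.51, adjusted p = 0.00571), a call lost without day 1 replicate 2 or day 0 replicate 1 (adjusted p up to 0.0706). The Hedgehog effector Gli3 had 259 and 293 at day 1, against 536 and 803 at day 0 (log2 fold -1.25, SE 0.24, adjusted p = 0.00316), a call lost without day 0 replicate 2 (log2 fold -0.96, adjusted p = 0.0615). Of 27 FGF and MAPK feedback genes, 4 were called lower and none higher, and 1 call, that of Fgfr3, held without day 1 replicate 2 or day 0 replicate 1. Fgfr3, a fibroblast growth factor receptor, had 2 and 3 at day 1, against 66 and 166 at day 0 (log2 fold -4.93, SE 0.69, adjusted p = 0.000293). In the IGF system 3 of 15 were called lower, with a median log2 fold of -1.07, and 0 of the 3 calls held without day 1 replicate 2 and 1 without day 0 replicate 1. Pappa, which cleaves IGF-binding proteins, had 21 and 7 at day 1, against 163 and 175 at day 0 (log2 fold -3.68, SE 0.71, adjusted p = 0.00349), a call lost without day 1 replicate 2 (adjusted p = 0.0774).

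Transcription factors of mesenchyme changed less as a group. Of 31, 3 were called lower and none higher, with a median log2 fold of -0.57 and 27 of 31 folds negative. The homeobox gene Prrx2 had 12 and 4 at day 1, against 334 and 407 at day 0 (log2 fold -5.52, SE 0.78, adjusted p = 0.000293). Snai1, a repressor of the epithelial state, had 25 and 26 at day 1, against 100 and 87 at day 0 (log2 fold -1.83, SE 0.51, adjusted p = 0.0324), and the kidney and limb mesenchyme factor Osr1 fell by 3.12 on the log2 scale (adjusted p = 0.0486). Both calls depended on single libraries: that of Snai1 was lost without any 1 of the 4 (adjusted p up to 0.162) and that of Osr1 without day 1 replicate 2 or either day 0 library (adjusted p up to 0.447). The Zeb repressors, named after their values were seen, had log2 folds of -0.81 for Zeb1 (218 and 201 at day 1, 342 and 395 at day 0, adjusted p = 0.016), short of the fold threshold, and -1.46 for Zeb2 (246 and 158 at day 1, 679 and 436 at day 0, adjusted p = 0.18). None of 33 Hox genes, the positional code that fibroblasts keep, was called in either direction by limma, while 2 were lower and 0 higher at an unadjusted p below 0.05. Their median log2 fold was -0.38, and Hoxc6 had 138 and 131 at day 1, against 127 and 185 at day 0 (log2 fold -0.19, adjusted p = 0.87).

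Among 14 subunits of AP-1, the dimeric factor that holds many fibroblast enhancers open, only Fosl2 was called, with 381 and 347 at day 1, against 1162 and 1139 at day 0 (log2 fold -1.66, SE 0.27, adjusted p = 0.000969). Jun had 468 and 340 at day 1, against 875 and 620 at day 0 and was not called (log2 fold -0.88, SE 0.37, adjusted p = 0.169). The median over the list was -0.15.

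The 20 largest falls, by a rule on call, level and overlap, also took in genes outside these lists. Rtl3, a gene derived from a retrotransposon, had 2 in both day 1 libraries and 298 and 512 at day 0, the largest log2 fold of the 20 at -7.03 (SE 0.72, adjusted p = 2.28e-05). Jph2, a junctophilin that ties the plasma membrane to the endoplasmic reticulum of muscle, had 11 and 8 at day 1, against 202 and 228 at day 0 (log2 fold -4.38, SE 0.45, adjusted p = 2.28e-05). Lrp2 (megalin), an endocytic receptor, had 94 and 27 at day 1, against 862 and 773 at day 0 (log2 fold -3.99, SE 0.54, adjusted p = 0.000236). The glycolytic enzyme of muscle, Eno3, had 11 and 23 at day 1, against 242 and 305 at day 0 (log2 fold -4.01, SE 0.62, adjusted p = 0.000562). Ptx3, a secreted pentraxin of innate immunity, had 49 and 17 at day 1, against 667 and 362 at day 0 (log2 fold -4.04, SE 0.67, adjusted p = 0.00105). Cacna1g, a T-type calcium channel, and Siglecg, a sialic-acid receptor known from B cells, had log2 folds of -4.26 and -4.48. Cyp1b1, Lsp1 and U90926 were also among the 20. Of the 20, 14 kept their call without each of the 4 libraries in turn. Among those that did not were Acta2, Thbs1, U90926, Cyp1b1 and Lsp1, with adjusted p up to 0.204 for U90926 without a library.

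The 20 largest rises took in genes best known from other tissues. Nefl, the light neurofilament of neurons, had 1989 and 2310 at day 1, against 71 and 28 at day 0 (log2 fold 5.55, SE 0.77, adjusted p = 0.000308). Gpr50, a melatonin-related orphan receptor, had 1346 and 1858 at day 1, against 99 and 33 at day 0 (log2 fold 4.76, SE 0.58, adjusted p = 0.000101). Nfe2l3, a cap'n'collar bZIP transcription factor, had 598 and 620 at day 1, against 24 and 23 at day 0 (log2 fold 4.64, SE 0.53, adjusted p = 5.37e-05). The groups stood far apart in each of these 3 genes.

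Avil (advillin), an actin-severing protein of epithelia and sensory neurons, had 420 and 1585 at day 1, against 13 and 57 at day 0 (log2 fold 4.84, SE 0.70, adjusted p = 0.000451). Il34, a ligand of the macrophage growth factor receptor, had 112 and 209 at day 1, against 9 and 5 at day 0 (log2 fold 4.31, SE 0.49, adjusted p = 4.73e-05). Myh1, a fast skeletal myosin heavy chain, had 1281 and 844 at day 1, against 42 and 38 at day 0 (log2 fold 4.67, SE 0.95, adjusted p = 0.00558). Upp1, which splits uridine, had 848 and 598 at day 1, against 76 and 28 at day 0 (log2 fold 3.92, SE 0.70, adjusted p = 0.00214). The 20 also held Ccdc190, Fut9, Tgm3, Rgs5, Mpzl2, Fetub, Aldh3a1, Trim9, Chrna1, Glb1l2 and Ccdc141. Several differed between the day 1 libraries, as Trim9 did at 33 and 180 at day 1, against 4 and 6 at day 0. Of the 20, 12 kept their call without each library in turn. The calls of Mpzl2 and Tgm3 were lost without day 1 replicate 2, those of Aldh3a1, Fetub and Glb1l2 without day 1 replicate 2 or day 0 replicate 1, and that of Rgs5 without day 1 replicate 1 or day 0 replicate 2. Chrna1 lost it without day 1 replicate 2 or either day 0 library, and Fut9 without either day 1 library or day 0 replicate 1, with adjusted p up to 0.258.

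**Figure D4:**
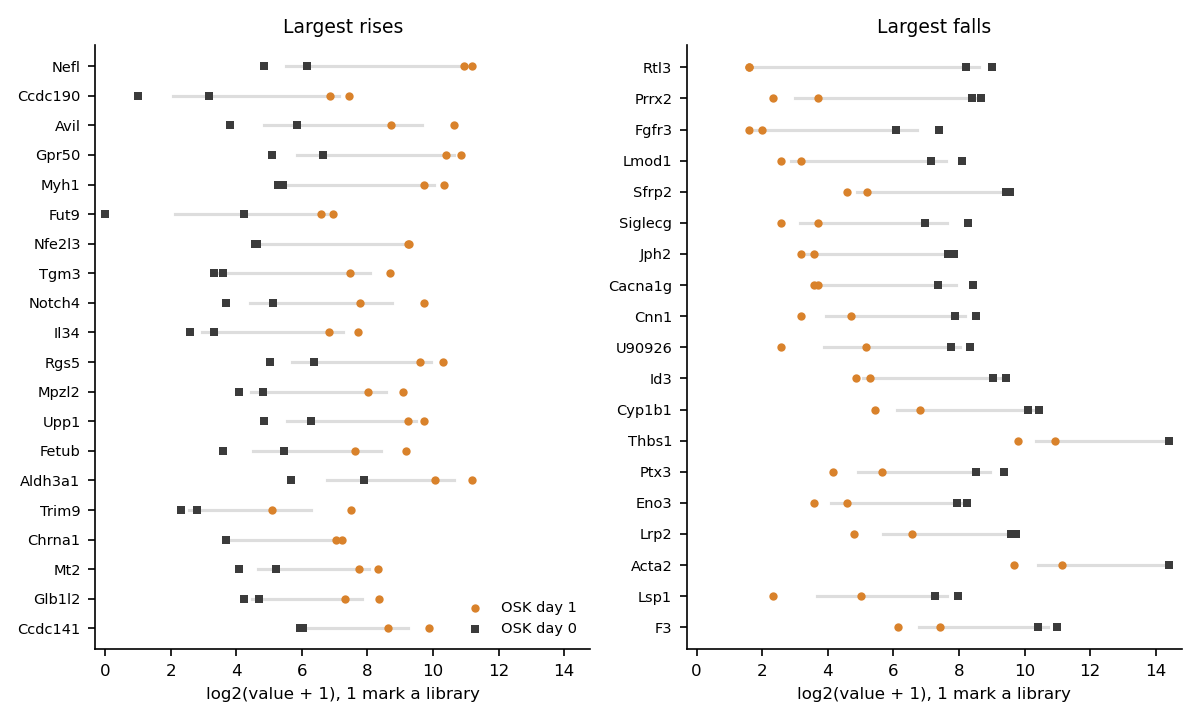
Values of the 20 largest rises (left panel) and 19 of the 20 largest falls (right panel) as log2(value + 1) in the 2 OSK day 1 libraries (orange circles) and the 2 OSK day 0 libraries (dark squares), with a grey bar between the means. The times do not overlap in any gene, which the rule required, and the day 1 pair is spread widest in Trim9, U90926 and Lsp1.

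A few markers of cell types foreign to the culture rose. The lists held 40 neuronal, 22 skeletal and cardiac muscle and 20 keratinocyte genes, and only those that reached the value threshold are counted here. Nppc, Trh, Npy and Krt6a reached it through day 1 alone. Of the 20 neuronal genes that reached it, 16 had a positive and 4 a negative log2 fold, and 3 were lower at an unadjusted limma p below 0.05. In this list 4 genes were called higher and none lower, with a median log2 fold of 0.91. Besides Nefl these were the peptide genes Nppc, at 47 and 75 at day 1, against 1 and 1 at day 0 (log2 fold 4.92, SE 0.75, adjusted p = 0.000514), Trh and Npy. Trh had 25 and 94 at day 1, against 4 and 1 at day 0 (log2 fold 3.97, adjusted p = 0.00481), and Npy had 17 and 31 at day 1, against 2 and 1 at day 0 (log2 fold 3.29, adjusted p = 0.0254). The count was 2 without day 1 replicate 2 or day 0 replicate 2; Trh lost its call in both of these fits (adjusted p up to 0.0991) and Npy without any 1 library (adjusted p up to 0.192). In skeletal and cardiac muscle, 1 of 4 was called higher, the acetylcholine receptor subunit Chrna1 at 131 and 150 at day 1, against 12 and 12 at day 0, while desmin Des and skeletal actin Acta1 had log2 folds of -2.80 and -3.66, both called. Des lost its call without any 1 library (adjusted p up to 0.307) and Acta1 without day 1 replicate 2 or either day 0 library (adjusted p up to 0.239). In keratinocyte genes, 1 of 7 was called, Krt6a, at 24 and 31 at day 1, against 0 and 2 at day 0 (log2 fold 4.03, adjusted p = 0.00413), lost without day 1 replicate 2 or day 0 replicate 1 (adjusted p up to 0.0687).

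Epithelial genes, whose gain marks the mesenchymal-to-epithelial transition of reprogramming, were called higher in 3 of 14 and lower in none, with a median log2 fold of 1.01. The list was mixed: 4 of the 14 folds were negative, all 4 with libraries that did not overlap and with an unadjusted p below 0.05. The 3 called were desmoplakin Dsp, at 896 and 983 at day 1, against 205 and 296 at day 0 (log2 fold 1.93, SE 0.58, adjusted p = 0.0494), the protease inhibitor Spint2 (log2 fold 1.82, adjusted p = 0.0282) and plakophilin Pkp3 (log2 fold 1.77, adjusted p = 0.0197). None of the 3 calls held without day 1 replicate 2 or day 0 replicate 1, where the count was 0. The defining adhesion genes were low and not called. Cdh1 (E-cadherin) had 22 and 112 at day 1, against 4 and 37 at day 0 (log2 fold 1.89, SE 0.87, adjusted p = 0.22), and Epcam had 13 and 20 at day 1, against 4 and 4 at day 0 (log2 fold 1.78, SE 0.63, adjusted p = 0.0982). In ESC, Cdh1 stood at 3614 and 3275 and Epcam at 400 in both libraries. Both genes were named after their values were seen.

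Few genes of the endogenous pluripotency network were measurable. Of 31 genes listed, 12 reached the value threshold, and 1 of them, Tdh, was called higher, having reached it through day 1 alone. Tdh, a threonine-catabolic enzyme of mouse ESC, had 22 and 45 at day 1, against 0 and 2 at day 0 (log2 fold 4.23, SE 0.61, adjusted p = 0.000314), where ESC had 2803 and 3614. Nanog and Esrrb did not reach the threshold, with Nanog at 0 and 1 at day 1, against 14 and 3 at day 0 and Esrrb at 2 and 0 at day 1, against 11 and 0 at day 0. Trim28, a corepressor that silences retroelements, had 1629 and 1792 at day 1, against 1262 and 1518 at day 0 and was not called (log2 fold 0.30, adjusted p = 0.44). The count was 2 without day 0 replicate 1.

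Of 34 chromatin regulators, 2 were called higher and none lower, where 3.49% of the genes described were called higher. On so few calls the list is not read as a group. Tet2, which oxidises methylated cytosine, had 567 and 851 at day 1, against 204 and 191 at day 0 (log2 fold 1.81, SE 0.31, adjusted p = 0.00139). The Polycomb partner Jarid2 had 182 and 336 at day 1, against 81 and 142 at day 0 (log2 fold 1.20, SE 0.29, adjusted p = 0.0166), and lost its call without day 1 replicate 2 or day 0 replicate 1 (adjusted p up to 0.259).

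Interferon-stimulated genes were called higher in 3 of 22 and lower in none, with a median log2 fold of 0.31. The 2'-5' oligoadenylate synthetase Oas2 had 21 and 24 at day 1, against 2 and 3 at day 0 (log2 fold 2.76, SE 0.24, adjusted p = 4.49e-06). Oas2 reached the value threshold through day 1 alone and kept its call without each library. Its relative Oas1a and the interferon response factor Irf9 rose by 1.63 (adjusted p = 0.00482) and 1.18 (adjusted p = 0.0124). Oas1a lost its call without day 1 replicate 2 or day 0 replicate 1 (adjusted p up to 0.0712) and Irf9 without day 1 replicate 2 or day 0 replicate 2 (adjusted p up to 0.114). Oas2 went on to 2711 and 2616 at day 3.

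Log2 folds of lipid synthesis genes were mostly positive and small. Of 26 genes of cholesterol synthesis and uptake, 6 were called higher and none lower, the median log2 fold was 0.55 and 25 of 26 folds were positive. The sterol oxidase Msmo1 had 1079 and 1103 at day 1, against 513 and 504 at day 0 (log2 fold 1.10, SE 0.19, adjusted p = 0.00137). Others called were Lss, Tm7sf2, Nsdhl and Stard4. Without a threshold on the fold, 10 of the 26 were called. The count was 3 without day 1 replicate 1 or day 0 replicate 1. The sterol element, searched as TCACNCCAC on both strands, was in 1 of the 17 list genes with a promoter, and in 1.37% of the described genes with one.

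Of 25 genes of fatty acid synthesis and use, 3 were called higher and 1 lower. The synthase Fasn had 2942 and 2542 at day 1, against 1213 and 1224 at day 0 (log2 fold 1.17, SE 0.19, adjusted p = 0.000976), and the elongase Elovl6 had 1153 and 903 at day 1, against 381 and 389 at day 0 (log2 fold 1.40, SE 0.24, adjusted p = 0.00127). Acadl, an oxidation enzyme and so of the opposite pathway, rose to 1866 and 1507 at day 1, against 451 and 392 at day 0 (log2 fold 1.99, SE 0.35, adjusted p = 0.00163). The fatty acid carrier Fabp5 fell by 1.12 on the log2 scale, a call lost without day 1 replicate 2 or either day 0 library (adjusted p up to 0.283).

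Metal-binding and redox genes were called higher in 4 of 18 and lower in none, with a median log2 fold of 0.65. The metallothionein Mt1 had 472 and 457 at day 1, against 106 and 49 at day 0 (log2 fold 2.67, SE 0.43, adjusted p = 0.000954), and Mt2 had 321 and 215 at day 1, against 36 and 16 at day 0 (log2 fold 3.39, SE 0.63, adjusted p = 0.00278). The zinc importer Slc39a10 rose by 1.35, a call lost without any 1 library (adjusted p up to 0.277), and the sulfiredoxin Srxn1 rose by 1.0, a call lost without day 1 replicate 1 or day 0 replicate 2 (adjusted p up to 0.337). The count was 2 without day 1 replicate 1 or day 0 replicate 2. In glycolysis 2 of 23 were called higher, and 0 of the calls held without day 0 replicate 2 and 1 without day 1 replicate 2. Gapdh stood at 21544 in both day 1 libraries, the table's highest value, against 7721 and 5488 at day 0 (log2 fold 1.73, SE 0.33, adjusted p = 0.0034), a call lost without day 0 replicate 2 (adjusted p = 0.0521).

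Counts of calls were small in the lists of proliferation and stress genes. Over the genes described, 3.49% were called higher and 3.66% lower. Lower calls in the Cdk inhibitor and p53 list and in the ATF4 list were above that share, on 3 calls each. Of 40 cell cycle genes, E2f2 alone was called, higher by 1.14 (adjusted p = 0.0308) and lost without any 1 library (adjusted p up to 0.235); the list's median log2 fold was 0.21. The proliferation marker Mki67 had 3159 and 1863 at day 1, against 2546 and 1736 at day 0 (log2 fold 0.21, adjusted p = 0.908), and Ccnd1 had 3030 and 2709 at day 1, against 2465 and 2401 at day 0 (log2 fold 0.24, adjusted p = 0.851). Of 28 Cdk inhibitors and p53 targets 3 were called lower, with a median of 0; of these calls 0 held without day 1 replicate 2 or day 0 replicate 2 and 1 without either other library. Of 27 genes of the ATF4 response 3 were called lower, among them the proline-synthesis enzyme Pycr1 at 12 and 5 at day 1, against 70 and 47 at day 0 (log2 fold -2.73, SE 0.48, adjusted p = 0.00172); 1 of the 3 calls held without day 1 replicate 2. Of 20 chaperones Pdia4 alone was called, at 860 and 816 at day 1, against 1674 and 1701 at day 0 (log2 fold -1.01), and its fold came under the threshold, at -0.97 at the least, without day 1 replicate 2 or day 0 replicate 2. Of 19 inflammatory secreted factors 1 was called lower, a call that held without day 1 replicate 1 alone. Of 21 imprinted genes 1 was called higher and 2 lower, the non-coding RNA Meg3 among them at 533 and 515 at day 1, against 1700 and 1858 at day 0 (log2 fold -1.76, SE 0.32, adjusted p = 0.0022). Meg3 kept its call without each library in turn, the other lower call was lost without any 1 of them, and the higher call was lost without day 1 replicate 2.

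Macrophage and blood genes were a check for other cells in the cultures. Of 19 listed, 10 reached the threshold and none was called by limma, with 1 higher and 1 lower at an unadjusted p below 0.05. Their median log2 fold was -1.43, with 7 of 10 folds negative. Summed values were 613 and 282 at day 1, against 856 and 211 at day 0. Lysozyme Lyz2 had 253 and 18 at day 1, against 461 and 49 at day 0, so replicate 1 was the higher at both times. The complement genes C1qa, C1qb and C1qc were at 0 in day 1 replicate 2 and at 10 to 24 in day 1 replicate 1, against 2 to 8 in day 0 replicate 2 and 29 to 38 in day 0 replicate 1. Cx3cr1 was at 0 in both day 1 libraries. None of 8 endothelial genes was called by limma, with 1 higher and 1 lower at an unadjusted p below 0.05. Of 8 primitive endoderm genes 1 was called higher and 3 lower; the higher call held without day 0 replicate 2 alone, and of the lower calls 2 held without day 0 replicate 1 and 1 without any other library. Of 8 trophoblast genes 1, the factor Ets2, was called higher, at 628 and 535 at day 1, against 250 and 200 at day 0 (log2 fold 1.37, SE 0.19, adjusted p = 0.000232). The part of other cells in the results was not tested.

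For most genes chosen at day 1, the later OSK libraries lay on the day 1 side of both day 0 libraries, as a description only. For the 460 that rose, the median of log2(value + 1) ran over the pairs of libraries from 5.58 and 5.55 (day 0) through 7.34 and 7.62 (day 1), 7.86 and 7.82 (day 3) and 7.68 and 7.63 (day 5) to 7.35 and 7.14 (day 7). For the 483 that fell it ran from 8.08 and 8.09 (day 0) through 6.32 and 5.95 (day 1), 5.55 and 5.49 (day 3) and 5.73 and 5.64 (day 5) to 5.58 and 5.58 (day 7). Both day 7 libraries lay below both day 0 libraries in 423 of the 483 that fell (87.6%). They lay above both day 0 libraries in 319 of the 460 that rose (69.3%). The same day 0 libraries had served to choose these genes, so chance highs or lows at day 0 favour such counts. No share over the genes described is set beside them. In 307 that fell (63.6%) the day 7 mean was lower than that of day 1, while in 148 that rose (32.2%) it was higher than that of day 1. At day 3 the mean was lower than that of day 1 in 333 that fell (68.9%), and higher in 250 that rose (54.3%). Among the chosen genes, falls lay beyond their day 1 level more often than rises did, with a wider gap at day 7 than at day 3. The day 1 libraries had also served to choose the genes, so chance highs or lows at day 1 bear on these counts too. Nor is a share over the genes described set beside them. These are counts with no test.

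Single genes took different courses after their first-day rise. Rgs5, a regulator of G-protein signalling found in pericytes, ran from 81 and 32 (day 0) through 1256 and 771 (day 1), 96 and 42 (day 3) and 33 and 25 (day 5) to 19 and 9 (day 7). Gpr50 stood at 567 and 578 (day 3), 333 and 167 (day 5) and 94 and 33 (day 7), the last close to its day 0 values of 99 and 33. Nt5e and Tdh went further up, Nt5e to 4616 and 3611 and Tdh to 357 and 444 at day 3. Id3 was at 401 and 423 on day 7, against 27 and 45 on day 3, and Sfrp2 at 130 and 129 on day 7, against 18 and 16 on day 3. Vcl had 913 and 1032 on day 7, against 901 and 948 on day 3. These genes were chosen for their courses after values were seen.

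**Figure D5:**
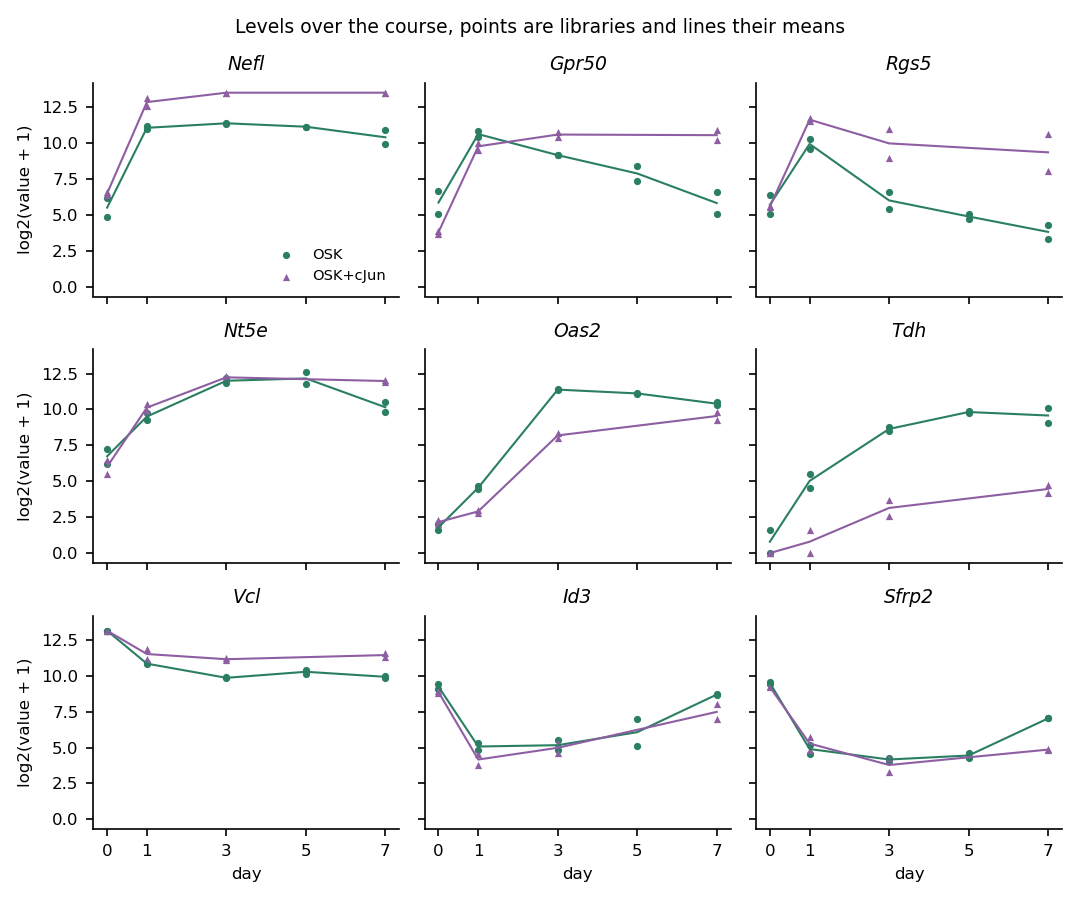
Values of 9 genes as log2(value + 1) by day in OSK cultures (green circles, days 0, 1, 3, 5 and 7) and OSK+cJun cultures (purple triangles, days 0, 1, 3 and 7), with lines through the means of 2 libraries. Rgs5 and Gpr50 peak at day 1 in OSK, Oas2 and Tdh stand far higher at day 3 than at day 1, and Vcl, Id3 and Sfrp2 drop within the first day in both series.

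The later step from day 3 to day 7, which shares no library with the first day, ran against part of the rises. Of the 460 that rose, 106 (23%) were called lower at day 7 than day 3 and 12 (2.61%) higher. Of the 483 that fell, 32 (6.63%) were lower and 38 (7.87%) higher. Over the genes described the shares were 4.91% lower and 2.48% higher, and over all genes tested 4.21% lower and 3.37% higher. The 106 made up 16.4% of the described genes called lower at day 7.

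Set beside the end points of reprogramming, in which ESC and MEF libraries share none with the first day, most of the genes that fell were lower in ESC than MEF. Of the 483 that fell, 342 (70.8%) were called lower in ESC than MEF and 29 (6%) higher, while over the genes described 23.3% were lower and 19.1% higher. Of the 460 that rose, 159 (34.6%) were higher in ESC and 74 (16.1%) lower. Over all genes tested, 22.4% were called higher and 20.6% lower in ESC. Of the 20 largest falls 15 were lower in ESC and 1 was higher. Of the 20 largest rises 10 were higher in ESC and 2 lower. Avil and Myh1 were low in both, Avil at 1 and 2 in ESC and 6 and 4 in MEF, and Myh1 at 1 and 12 in ESC and 6 and 0 in MEF.

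Cultures with added Jun, a factor known to hinder reprogramming, gave a first day from other libraries. It is not an independent repeat. Differences between replicates 1 and 2 were correlated between OSK and OSK+cJun (0.331 at day 0 and 0.265 at day 1), and both first days took their spread from the same fit. There 4.38% of the genes tested were called higher and 3.87% lower at day 1. Those 703 genes higher and 621 lower became 348 and 316 without OSK+cJun day 1 replicate 2, 457 and 362 without its day 0 replicate 1, and 435 and 316 without its day 0 replicate 2. Of the 460 genes that rose in OSK, 284 (61.7%) were called higher with Jun and 0 lower, and 447 had a positive log2 fold. Of the 483 that fell, 326 (67.5%) were called lower and 0 higher, and 9 had a positive log2 fold. Those shared calls made up 47.2% and 56.3% of the described genes called higher and lower with Jun. Among the 20 largest rises 19 were called higher with Jun, the exception being Trim9 at 2 and 6 at day 1, against 1 and 3 at day 0 with Jun. Among the 20 largest falls 19 were called lower, the exception being Fgfr3 at 6 and 2 at day 1, against 17 and 18 at day 0 with Jun.

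The difference between the first days was tested gene by gene as an interaction, and limma called 2 of 16038 genes (0.0125%), with 711 at an unadjusted p below 0.05. Pcsk1, a convertase of neuropeptide precursors, rose by 1.47 in OSK (86 and 106 at day 1, 25 and 46 at day 0) and by 3.97 with Jun (72 and 66 at day 1, 4 and 3 at day 0). Anxa11, an annexin, had a log2 fold of -0.17 in OSK (187 and 212 at day 1, 193 and 262 at day 0) and rose by 1.53 with Jun (754 and 686 at day 1, 243 and 255 at day 0). Some genes were called in OSK alone but not as differing. Oas2 had 7 and 6 at day 1, against 4 and 3 at day 0 with Jun, Tdh had 0 and 2 at day 1 and was listed at 0 at day 0, and Trh was listed at 0 at day 1 and had 2 and 0 at day 0. The 3 were picked after their values were seen, and for none of them was the difference past the threshold. The interaction count ranged from 0 to 6 without 1 of the 8 libraries. It was 0 without OSK+cJun day 0 replicate 2, 1 without OSK day 0 replicate 2 or OSK+cJun day 1 replicate 1, 5 without OSK day 1 replicate 1 and 6 without OSK+cJun day 1 replicate 2. With replicate number as a block it was 4 over all libraries and 74 over the 16 libraries of OSK and OSK+cJun at days 0, 1, 3 and 7, where it was 2 without the block; both fits over 16 libraries were chosen after seeing the data.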

How the data were processed

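The study measured RNA of mouse cells by sequencing; per the labels' protocols, total RNA was taken with TRIzol, TruSeq RNA libraries were prepared, and a NextSeq 500 read them. The submitters' processing notes name bcl2fastq, Bowtie2, RSEM and build mm10, with no versions or settings. The values the authors deposited are a score per gene: whole numbers with nearly the same distribution in every library (at most 2 apart at any rank, highest value 21544). They look quantile-normalised and rounded, a step that no source used here describes, so depth is unknown, ties at the top hide differences and a shift common to most genes cannot be seen.

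Gene symbols were matched by Ensembl gene ID through a table of gene names (18039 of 18198 matched). limma 3.58.1 (R 4.3.3) was fitted to log2(value + 1) of all 26 libraries, 1 mean for each of 13 groups, with trended and robust variances, over the 16038 genes at 10 or more in at least 2 libraries, with Benjamini-Hochberg adjustment; genes with adjusted p below 0.05 and a log2 fold of at least 1 in size were called. The scripts were tested on simulated data. Named genes were the 20 largest rises and falls among called genes with libraries that did not overlap and a mean of at least 100 in the higher group. Also named by rule were Pou5f1, Sox2 and Klf4, and up to 8 called members of each list. The rule further took uncalled members of highest mean in lists with few calls, and genes called for the difference between OSK and OSK+cJun. Any other gene was chosen after its values were seen. The genes described and the lists were chosen with earlier results of these data known. Motifs were searched in RefSeq promoters of GRCm38.p6. Alternatives were other pseudocounts, filters, libraries, variance models, centring, a block for replicate number and leaving out each replicate. Results of some genes are not reported here.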

Additional observations from a re-analysis of the deposited data

Results flagged for a closer look

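Both genes below were picked out because their first-day change differed between OSK and OSK+cJun by the test of the difference itself. Pcsk1 differed by -2.5 on the log2 scale (SE 0.39, adjusted p = 0.0463), with values higher at day 1 in both libraries of both series. Its day 0 values were 25 and 46 in OSK and 4 and 3 in OSK+cJun. Anxa11 differed by -1.7 (SE 0.25, adjusted p = 0.0413). With Jun both day 1 libraries were above both day 0 libraries, and in OSK the times overlapped.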

How the results depend on the processing

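With n = 2 per group, the counts depended most on which libraries gave the spread. With only the compared libraries in the fit, 15 genes were called higher and 38 lower, all of them among the genes described. The counts were 407 and 375 in OSK+cJun and 0 for the difference. By list they were 3 contractile, 2 matrix, 2 BMP and 1 Wnt gene. They were 0 in the TGF-beta, protease, Yap and Tead, cholesterol, epithelial, neuronal, metallothionein and pluripotency lists. A fit of 2 against 2 libraries leaves 2 residual degrees of freedom, in OSK as in OSK+cJun. The cause of the lower counts was not tested. Without 1 replicate the ranges were 207 to 358 genes higher and 189 to 366 lower (196 to 327 and 181 to 354 of the genes described), 348 to 556 and 316 to 416 in OSK+cJun, 0 to 6 for the difference, 12 to 20 contractile, 9 to 14 matrix, 5 to 7 BMP, 3 to 7 TGF-beta, 4 to 6 Wnt, 1 to 5 protease, 3 to 5 Yap and Tead, 3 to 6 cholesterol, 0 to 2 epithelial, 2 to 4 neuronal, 2 to 4 metallothionein and 1 to 2 pluripotency. Signs turned, without 1 replicate, for uncalled genes alone: Mki67 ran from -0.174 to 0.587 (-0.07 without day 0 replicate 2), Lyz2 from -3 to 0.741 (0.474 without day 0 replicate 1), Hoxc6 from -0.457 to 0.082 and Anxa11 in OSK from -0.394 to 0.045. The difference gave 4 calls at pseudocount 0.1, 11 at 5, 8 with no filter, 10 with no variance trend and 0 with the OSK and OSK+cJun libraries alone; BMP gave 6 at pseudocount 0.1, and pluripotency 3 at pseudocount 5, 2 with the filter on the 4 libraries, 3 with the OSK and OSK+cJun libraries and 3 over 16 libraries without a block. Metallothionein gave 2 with no variance trend and 7 with no threshold on the fold, where cholesterol gave 10. Libraries with the same replicate number deviated together in OSK and OSK+cJun at days 0, 1, 3 and 7 (correlations 0.192 to 0.331 in 28 pairs of groups) and not elsewhere (-0.088 to 0.095 in 50), a hint from the data, not the design. With replicate number as a block, 459 and 482 of the calls were shared, pluripotency gave 2 and the difference 4. A block over those 16 libraries alone gave 823 genes higher and 855 lower (721 and 805 of the genes described), 11 protease, 6 epithelial, 7 neuronal, 4 pluripotency and 74 for the difference. The cause of these shifts was not tested. The fits over 16 libraries, without day 5 and without genes at the highest value were chosen after seeing the data. Centring each library on its median, leaving out the OSK day 5 libraries or leaving out genes at the highest value moved no count past 1.5 times, though Dsp and Osr1 lost their calls without the day 5 libraries, and no called gene named here changed sign in any fit.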
